A study of Mus musculus with 4 samples.

Results

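The alveolar type 2 (AT2) surfactant genes examined here are Sftpa1, Sftpb, Sftpc, Sftpd, Abca3, Lamp3, Napsa, Slc34a2, Etv5 and Lpcat1. They were chosen by name, as surfactant protein genes and lamellar body genes, and all 10 were found among the 41079 genes of the count table. Lung RNA was sequenced as 4 libraries, 1 for each genotype, wild type (WT) or Rab44-knockout (Rab44-KO), and each condition, normal or induced with ovalbumin (OVA). The study asked how loss of Rab44, a large Rab GTPase of membrane traffic, alters allergic airway inflammation, and each comparison below is between 2 libraries with no replicate, so no difference could be set against the spread between mice and no test was run. Rab44-KO mice were made by CRISPR/Cas9 editing on a C57BL/6 background and were compared with WT littermates. All animals were females aged 8 to 14 weeks. The OVA-induced groups were injected intraperitoneally with OVA and alum on days 0, 7 and 14, received OVA (100 μg in 50 μL) through the nose on days 17 to 20, and had their lungs taken on day 21. The normal groups carry the label of no treatment, and whether they received PBS is not clear from the labels. How many mice each library holds is not given in the sources used here.

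AT2 cells line the alveoli and make surfactant, a film of phospholipid and protein that keeps the alveoli open at low lung volume. Phospholipid and the hydrophobic proteins SP-B and SP-C are packed into lamellar bodies, lysosome-related organelles that the cell secretes, whereas the collectins SP-A and SP-D bind microbes and allergens in the alveolar fluid. In allergic airway disease SP-A and SP-D are studied for their effect on eosinophils and on type 2 inflammation.

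The libraries held 18112901 to 19910236 counts, and scaling by edgeR's trimmed mean of M values (TMM) changed them by factors of 0.973 to 1.02. Where values of all libraries are listed, WT lungs come before Rab44-KO lungs, and within each genotype the normal library comes before the OVA-induced one. Rab44 itself had 251 and 810 counts in WT and 1 and 0 counts in Rab44-KO lungs, so the targeted gene followed the labels. Levels are given as CPM, counts scaled to library size by TMM, when 1 gene is compared between libraries, and as TPM, which allow for gene length too, when genes are compared with each other. The log2 fold change (log2FC) is the log2 ratio of 2 CPM values. Ranges in brackets are exact 95% Clopper-Pearson intervals of the ratio of counts and cover counting error only. Every member had at least 2988 counts in every library, so all 10 passed the minimum of 10 counts in the higher library.

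Sftpc was the most abundant member by TPM and gave the largest difference between genotypes with OVA. It encodes SP-C, a small hydrophobic peptide cut from a longer proprotein, and lies on chromosome 14 of GRCm38 from 70520949 to 70524081 on the minus strand (GENCODE M21). The first 300 bases of its coding sequence are shown because SP-C is known for a membrane helix rich in valine, and the longest run of valine (GTN) codons, codons 39 to 44, is in capitals. The sequence is that of GENCODE M21 transcript Sftpc-201, whose whole coding sequence has only 582 bases, or 194 codons with the stop codon.
Sftpc: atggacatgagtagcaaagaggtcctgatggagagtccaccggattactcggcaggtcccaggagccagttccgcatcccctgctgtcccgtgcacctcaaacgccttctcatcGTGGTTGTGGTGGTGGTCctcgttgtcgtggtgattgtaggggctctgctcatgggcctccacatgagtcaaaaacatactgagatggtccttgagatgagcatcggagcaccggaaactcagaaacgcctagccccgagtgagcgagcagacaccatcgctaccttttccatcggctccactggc

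The collectin gene Sftpa1 (chromosome 14, 41131782 to 41136452, plus strand) and Sftpb (chromosome 6, 72304610 to 72314371, plus strand), which encodes SP-B, had unlike profiles over the 4 libraries. The 250 bases before their RefSeq start sites (GRCm38.p6) are shown with each CTCAAG, the core of the motif of NKX2-1, the lung homeodomain factor, in capitals.
Sftpa1, chr14:41131538-41131787, plus strand: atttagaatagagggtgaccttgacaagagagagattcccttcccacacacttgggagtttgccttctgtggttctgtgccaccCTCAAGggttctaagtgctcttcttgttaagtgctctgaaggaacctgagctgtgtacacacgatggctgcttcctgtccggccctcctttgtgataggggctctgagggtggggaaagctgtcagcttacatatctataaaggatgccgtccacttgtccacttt
Sftpb, chr6:72304360-72304609, plus strand: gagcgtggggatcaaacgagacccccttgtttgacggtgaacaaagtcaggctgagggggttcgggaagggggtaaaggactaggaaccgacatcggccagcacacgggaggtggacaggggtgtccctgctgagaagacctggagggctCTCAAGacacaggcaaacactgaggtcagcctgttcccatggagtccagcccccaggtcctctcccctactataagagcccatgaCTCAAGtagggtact
CTCAAG was searched on both strands from 250 bases before to 50 bases after each start site. It starts at base -166 of Sftpa1 and at bases -100 and -15 of Sftpb. Of 32851 mouse promoters of this length 15.9% hold it, and of the 7 members with a promoter in the table only Sftpa1 and Sftpb do. TGTTTAC, a FOXA motif, is in 3.65% of all promoters and in those of Etv5 and Lamp3. The letters TTNNGCAA, for C/EBP, are in 10.8% of all and in that of Slc34a2, on both strands at the same bases. TTCNNNGAA, for STAT factors, is in 8.3% of all and in that of Lamp3, the longer palindrome that STAT6 prefers is in 6.95% of all and in none of the members' windows, and TATAAA is in 13.6% of all and in that of Sftpa1. Matches of different motifs overlap in no member, and all are a description of the letters only. Sftpc, Sftpd and Napsa are without an entry in the promoter table.

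The other members lie at scattered places in GRCm38. Sftpd, the gene of SP-D, is on chromosome 14 from 41172214 to 41185149 on the minus strand, close to Sftpa1. Abca3, the lipid transporter of the lamellar body membrane, is on chromosome 17 from 24351950 to 24410201 on the plus strand, and Lamp3, a lysosomal membrane protein found in lamellar bodies and also in mature dendritic cells, is on chromosome 16 from 19653378 to 19706375 on the minus strand. Napsa, an aspartic protease that helps to process SP-B, is on chromosome 7 from 44572380 to 44586862 on the plus strand. Slc34a2, the sodium phosphate cotransporter, is on chromosome 5 from 53038081 to 53071664 on the plus strand. Etv5, an ETS transcription factor that AT2 cells need to keep their identity, is on chromosome 16 from 22381309 to 22439719 on the minus strand. Lpcat1, the acyltransferase that remodels lysophosphatidylcholine into the saturated surfactant lipid, is on chromosome 13 from 73467197 to 73516422 on the plus strand.

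By TPM the 10 members stood in the same order in all 4 libraries, Sftpc first and then Sftpb, Sftpa1, Sftpd, Slc34a2, Napsa, Lamp3, Lpcat1, Abca3 and Etv5. In normal WT lungs Sftpc was at 40379 TPM, 10.8 times Sftpb at 3728 TPM, and Etv5 was lowest at 82.9 TPM. Only 1 gene of the table had a higher TPM than Sftpc in each library. The closest neighbors were Sftpb and Sftpa1 in OVA-induced WT lungs, at 4067 and 3547 TPM, a ratio of 1.15, whereas the same ratio was 1.86 in normal WT lungs and 2.08 and 1.5 in Rab44-KO lungs. Sftpd and Slc34a2 were also near each other in normal Rab44-KO lungs, with a ratio of 1.17. No spread between mice exists here against which these neighbors could be told apart. The 10 genes together held 2.22% and 3.15% of all counts in WT lungs and 2.24% and 2.01% in Rab44-KO lungs.

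**Figure D1:**
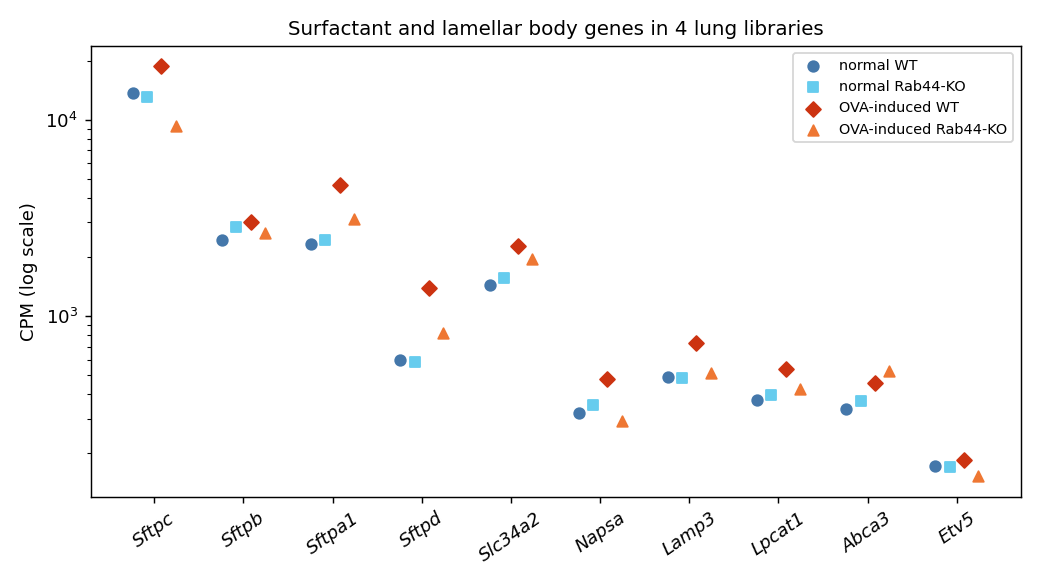
Level of each member in the 4 lung libraries, in CPM on a log scale, with 1 symbol per library and the genes ordered by TPM in normal WT lungs. In 9 of the 10 genes the OVA-induced WT library is the highest, and for Abca3 the highest is OVA-induced Rab44-KO at 523 CPM.

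In normal lungs the members differed little between genotypes. Sftpc had 13657 CPM in WT and 13035 CPM in Rab44-KO lungs, with a log2FC of -0.07 (-0.08 to -0.06), or -0.02 with the trend along gene length removed. Sftpb had the largest difference of the 10, from 2450 to 2840 CPM, a log2FC of 0.21 (0.20 to 0.23). The intervals of Sftpd, Lamp3 and Etv5 included 0. The median log2FC of the members was 0.07, beside 0.004 for the 18718 genes that passed the minimum. None of the 10 went beyond 0.5 in either direction, where 14.4% of all genes did, and 1.12% of the 4729 genes with at least 1000 counts did.

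By CPM, OVA-induced WT lungs held more of every member than normal WT lungs. Sftpd was at 596 CPM in normal and 1389 CPM in OVA-induced WT lungs, a log2FC of 1.22 (1.19 to 1.25) and the largest of the 10. Sftpa1 was next, at 2340 and 4674 CPM, a log2FC of 0.998 (0.982 to 1.01). Both values of the collectin genes, whose proteins act in host defense, were above that of Sftpc, at 13657 and 18690 CPM with a log2FC of 0.45 (0.45 to 0.46), and that of Sftpb, at 2450 and 3017 CPM with a log2FC of 0.30 (0.28 to 0.32). Of the genes of lipid transport and lamellar bodies, Slc34a2 had a log2FC of 0.66 (0.63 to 0.68), Napsa 0.59 (0.54 to 0.64), Lamp3 0.56 (0.52 to 0.60), Lpcat1 0.52 (0.47 to 0.56) and Abca3 0.45 (0.41 to 0.50). Etv5, the transcription factor, was at 172 and 185 CPM and had the smallest value, 0.11 (0.04 to 0.17). The median of the members was 0.54 and that of 19023 genes 0.004. Among them 6 of 10 were higher by more than 0.5, against 17.7% of all genes and 10.5% of the 5166 genes with at least 1000 counts. Under TPM, which lowered the median of all genes to -0.16, 2 of 10 members (Sftpa1 and Sftpd) and 12.9% of all genes were, and all 10 members lay above that median. Only Sftpd was higher by more than 1, where 8.99% of all genes were, and Sftpa1 lay just under that border.

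In Rab44-KO lungs the same members went different ways between the normal and the OVA-induced library. Sftpd was again highest, at 581 and 825 CPM, a log2FC of 0.50 (0.47 to 0.54), and Abca3 was close to it at 371 and 523 CPM, a log2FC of 0.50 (0.45 to 0.54). Sftpa1 was at 2429 and 3132 CPM, a log2FC of 0.37 (0.35 to 0.38), and Slc34a2 had 0.32 (0.29 to 0.34). Lamp3 and Lpcat1 had small values of 0.08 and 0.10. The other 4 members were lower in the OVA-induced library, Sftpc from 13035 to 9290 CPM with a log2FC of -0.49 (-0.50 to -0.48), Napsa from 354 to 293 CPM with -0.27 (-0.32 to -0.22), Etv5 with -0.16 (-0.23 to -0.08) and Sftpb with -0.11 (-0.12 to -0.09). With the trend along gene length (described below) removed Sftpc was at -0.27, Napsa at -0.11, Lamp3 at 0.14 and Sftpb at 0.06. The median of the members was 0.09 and that of 19073 genes -0.01. Sftpd alone was higher by more than 0.5, where 15.2% of all genes and 6.96% of the 4926 genes with at least 1000 counts were, and Abca3 at 0.497 stood just under it, so whether it is counted depends on small shifts of the scaling.

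Between the OVA-induced libraries 9 of 10 members were lower in Rab44-KO lungs. Under TPM, which raised the median of all genes to 0.29, 9 of 10 lay below that median. Sftpc had 18690 CPM in WT but 9290 CPM without Rab44, 2.01-fold lower, with a log2FC of -1.01 and an interval that began at -1.02 and ended just past -1. Sftpd followed at 1389 and 825 CPM, a log2FC of -0.75 (-0.78 to -0.72), and Napsa at 480 and 293 CPM, a log2FC of -0.71 (-0.76 to -0.66). Sftpa1, at 4674 and 3132 CPM, had a log2FC of -0.58 (-0.59 to -0.56). These 4 genes cover both collectins, the SP-C peptide and a protease of the secretory route. Lamp3 was at 726 and 511 CPM, a log2FC of -0.51 (-0.54 to -0.47). Lpcat1 had -0.33, Etv5 -0.27, Slc34a2 -0.22 and Sftpb -0.19, all with intervals below 0. Abca3 was higher without Rab44, at 459 and 523 CPM, a log2FC of 0.19 (0.15 to 0.23). Abca3 was at -0.03 and Sftpb at 0.17 with the length trend removed. Of the members 5 of 10 were lower by more than 0.5, against 21.2% of all 19259 genes and 17.1% of the 5295 genes with at least 1000 counts. Of the 10 members 0 were lower by more than 0.5 with the length trend removed, beside 15.2% of all genes. Under TPM the count was 1 of 10 beside 9.9% of all genes, and relative to the epithelial list 3 of 10 beside 17.2%. Their median was -0.42, and that of all genes was -0.02. Sftpc was the only member lower by more than 1, where 7.34% of all genes were, and its interval ended at that border. In these whole-lung libraries fewer AT2 cells and less RNA per AT2 cell cannot be told apart.

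**Figure D2:**
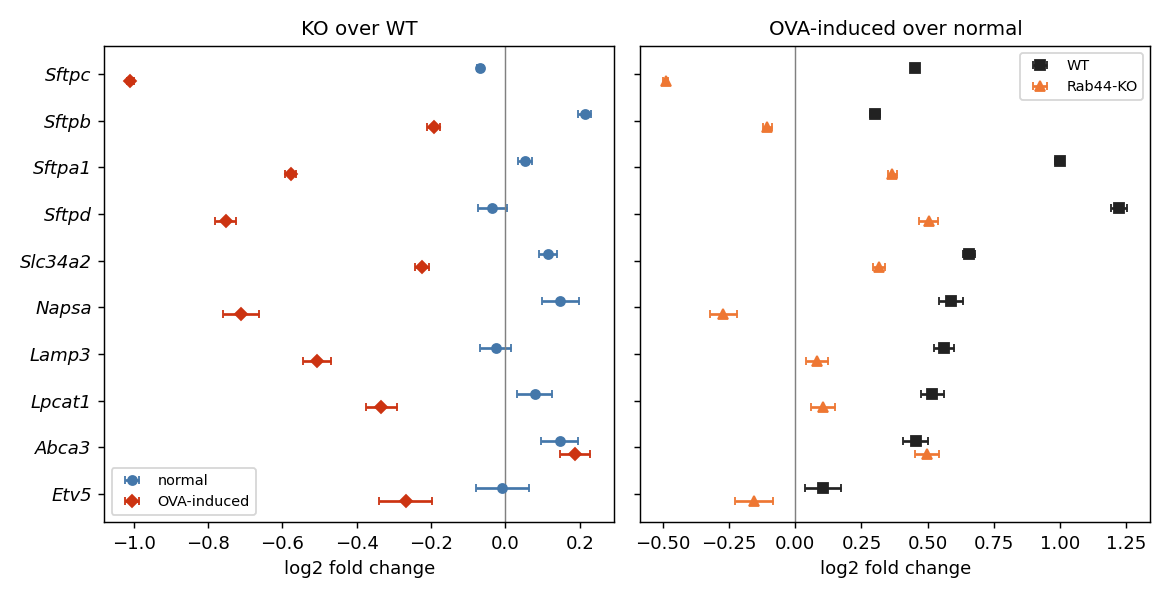
The log2FC of each member with its exact 95% counting interval, for Rab44-KO over WT on the left (circles, normal; diamonds, OVA-induced) and for OVA-induced over normal on the right (squares, WT; triangles, Rab44-KO). The normal genotype values lie between -0.07 and 0.21, and the OVA-induced ones between -1.01 and 0.19.

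The response to OVA in Rab44-KO minus that in WT lungs uses all 4 libraries. These comparisons share libraries, since the OVA-induced WT library enters both the genotype comparison and the WT response, so their values are not independent of each other. Sftpc had a difference of responses of -0.94 (-0.95 to -0.93) and Napsa one of -0.86 (-0.93 to -0.79). With the length trend removed their order turned, at -0.53 and -0.58. The collectin genes Sftpd and Sftpa1 had -0.72 and -0.63, then -0.41 and -0.49 without that trend, and Sftpb had -0.41, then -0.08. Abca3 had 0.04 (-0.02 to 0.11), the only value above 0, and was at -0.15 with that trend removed, where all 10 members lay below 0. Etv5 had -0.26. The transporter gene had responses of 0.45 (WT) and 0.50 (Rab44-KO), whose difference lay within counting error. The median difference of the members was -0.45, beside -0.03 for 19744 genes. Of the members 4 of 10 had a difference below -0.5, where 22.4% of all genes did, and 2 of 10 (Sftpc and Napsa) did with the length trend removed and under TPM, beside 16.6% and 11.8% of all genes.

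Ratios of members within 1 library do not depend on how the libraries are scaled. There were 5.58 and 6.2 Sftpc counts per Sftpb count in WT lungs and 4.59 and 3.52 in Rab44-KO lungs. Both genes encode hydrophobic peptides of the surfactant film, and their balance was thus lower in the Rab44-KO library of each pair. Sftpc counts per Abca3 count were 40.8 and 40.7 in WT against 35.2 and 17.8 in Rab44-KO lungs, the lowest being that of the OVA-induced Rab44-KO library. Sftpc is the shortest and Abca3 the longest member, so they stand at opposite ends of the trend with length described below, without which their OVA-induced genotype log2FC were -0.49 and -0.03. Sftpa1 counts per Sftpb count were 0.956 and 1.55 in WT against 0.856 and 1.19 in Rab44-KO lungs. Sftpd counts per Sftpb count were 0.243 and 0.461 against 0.205 and 0.313. Both collectin genes were therefore higher against Sftpb with OVA in either genotype, and less so in Rab44-KO lungs. The collectins kept more of a balance with each other than with Sftpb, since Sftpd counts per Sftpa1 count ranged only from 0.239 to 0.297. This was not particular to the collectins, since Etv5 counts per Sftpb count ranged from 0.0581 to 0.0701.

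**Figure D3:**
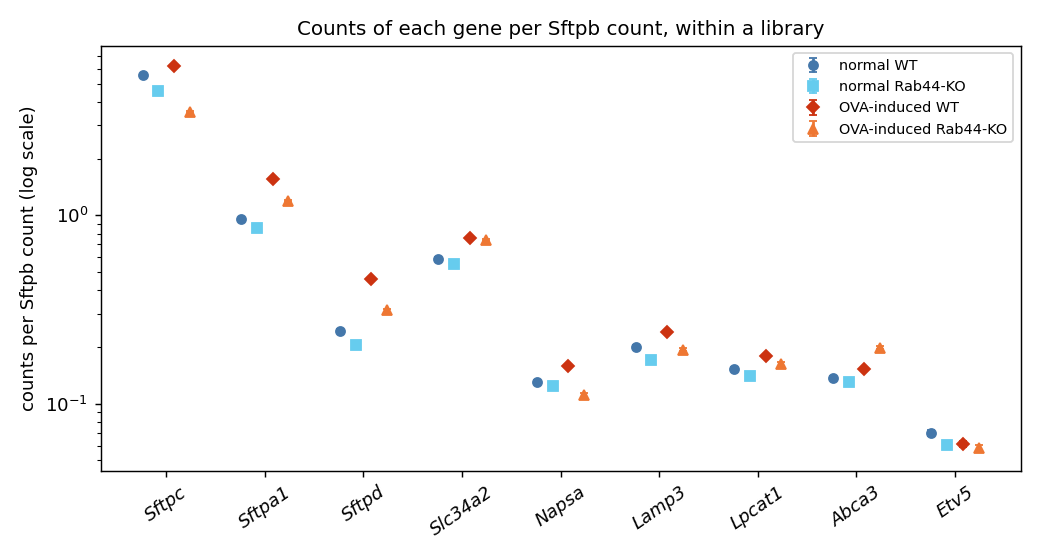
Counts of each other member per Sftpb count within a library, on a log scale, with 1 symbol per library and exact 95% counting intervals. For Sftpc the OVA-induced Rab44-KO library is lowest at 3.52, and for Abca3 it is highest at 0.198.

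Differences in the OVA-induced comparison also went with gene length. Length is taken from the counts and TPM as deposited, relative to the median gene. Over all genes the median log2FC of Rab44-KO over WT with OVA was -0.41 in the shortest of 5 equal length classes and 0.37 in the longest, and it was -0.04 and 0.06 without OVA. The WT response to OVA had the opposite slope, from 0.19 to -0.21, and the Rab44-KO response ran from -0.14 to 0.11. Sftpc is the shortest member at 0.217 of the median length, Sftpd has 0.358, Napsa 0.399 and Sftpb 0.422, whereas Abca3 is the longest at 1.78. Across the 10 members the OVA-induced genotype log2FC had a Pearson's r of 0.821 and a Spearman's rho of 0.806 with log2 length, given as a description across genes that share their libraries.

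With the running median of all genes along length subtracted, 9 of 10 members still lay below 0 in that comparison. Sftpc was then at -0.49, Lamp3 at -0.40, Sftpa1 at -0.38, Sftpd at -0.36, Napsa and Lpcat1 at -0.34, Etv5 at -0.31 and Slc34a2 at -0.22. Abca3 changed sign to -0.03 and Sftpb to 0.17, so the directions of these 2 genes depend on how length is treated. The members' median was -0.34. In the WT response the collectins kept the highest values after this subtraction, Sftpd 1.07 and Sftpa1 0.90, whereas Sftpc was at 0.26 and Sftpb at 0.13, and the median was 0.53. What the trend with length comes from was not tested.

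**Figure D4:**
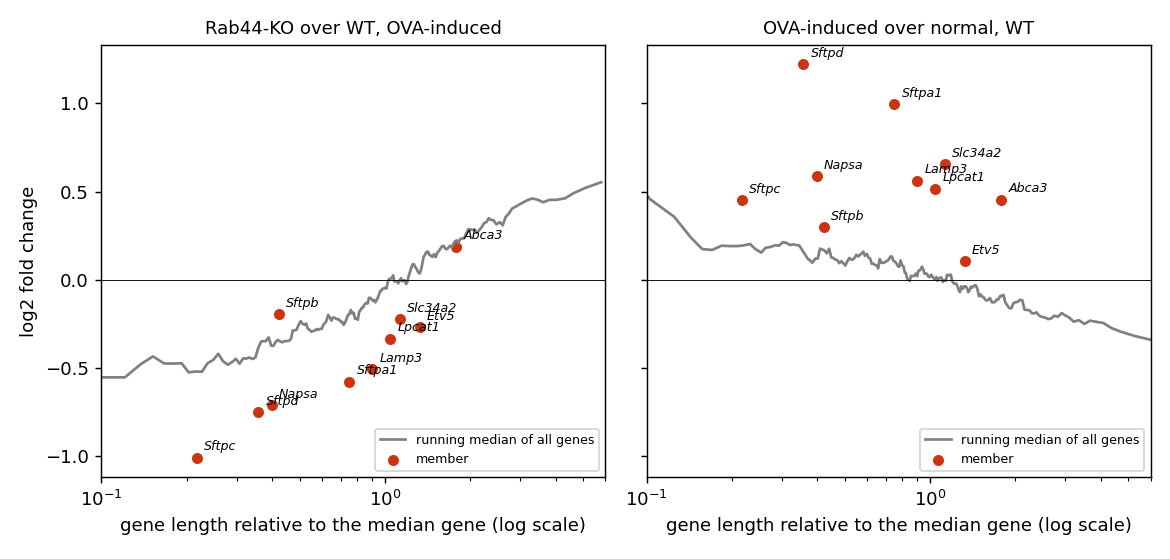
The log2FC of each member (points) against gene length relative to the median gene on a log axis, with the running median of all genes (line), for Rab44-KO over WT with OVA on the left and for OVA over normal in WT on the right. On the left Sftpc at 0.217 of the median length has -1.01 where the line is at -0.52, and on the right all 10 members lie above the line.

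The count table lists antisense genes that overlap 3 members in GENCODE M21, and the strand setting of the counting is not given in the sources used here, so reads of a gene and its antisense partner may not be told apart. Gm15396, antisense to Napsa, had 2784 and 3992 counts in WT and 3160 and 2717 counts in Rab44-KO lungs. D330041H03Rik, antisense to Abca3, had 1329 and 2153 against 1211 and 1382 counts. Gm17182, antisense to Slc34a2, had at most 51. Transcripts of Napsa share 8.56%, those of Abca3 5.58% and those of Etv5 10.4% of their 150-base windows with transcripts of other genes, and the remaining 7 share none. The counts of Napsa, Abca3, Slc34a2 and Etv5 are uncertain for these reasons, by an amount that was not measured.

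The other AT2 genes of the lists, Sfta2, Cxcl15, S100g, Egfl6, Hc, Lgi3, Chi3l1, Lyz2, Muc1 and Cldn18, were lower in OVA-induced Rab44-KO than in WT lungs in all 10 cases, with a median log2FC of -0.75. Of these genes 8 of 10 were lower by more than 0.5, beside 21.2% of all genes, and 5 of 10 with the length trend removed, beside 15.2%, with a median of -0.52. Chi3l1, a chitinase-like protein, had -2.00, S100g, a calcium-binding protein, -1.44, and Lyz2, lysozyme, -1.04. S100g was at -0.91 and Lyz2 at -0.57 with that trend removed. Macrophages also make Lyz2 and Chi3l1. In the WT response 7 of the 10 were higher by more than 0.5, beside 17.7% of all genes, with a median of 0.87, and Cldn18, an alveolar claudin, was the only 1 below 0, at -0.27. The Rab44-KO response had a median of -0.15 and the normal genotype comparison one of 0.08.

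The WT response of the 8 AT2 transcription factors had a median of -0.19, below that of the surfactant genes. Nkx2-1 was at 184 CPM in normal WT and 192 CPM in normal Rab44-KO lungs, and the log2FC between genotypes was 0.06 without and -0.20 with OVA. Its response to OVA was -0.14 in WT and -0.40 without Rab44. Cebpa, a C/EBP factor of AT2 maturation, was higher with OVA in WT lungs by 0.80 and had -0.54 between the OVA-induced genotypes, and Elf3, an epithelial ETS factor, had 0.72 and -0.91. Of the 8 factors 6 were below 0 in the WT response, with 2 lower and 2 higher by more than 0.5, beside 15.8% and 17.7% of all genes. The 2 lower ones were Klf5, a zinc finger factor, at -0.52, and Etv4 at -0.74 from only 15 and 9 counts. Foxa1, a forkhead factor, had 0.38 between the OVA-induced genotypes. The median of the factors between the OVA-induced genotypes was -0.20, and 2 of the 7 that passed the count minimum were lower by more than 0.5, beside 21.2% of all genes. Etv4, a relative of Etv5, had 9 and 2 counts there and gives no ratio of use. Genes of FGF signaling, which acts upstream of Etv5, had a median of 0.36 between the OVA-induced genotypes and -0.25 in the WT response, with Dusp6 at -0.79 and Spry4 at 0.52 in the former. With the length trend removed 1 of the 7 factors was lower and 1 (Klf5, at 0.68) higher by more than 0.5, beside 15.2% and 19.7% of all genes. Without that trend the median of the FGF genes was 0.14, Foxa1 was at 0.24, Spry4 was at 0.11 and Cebpa at -0.28.

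Genes that make surfactant lipid had a median log2FC of 0.28 in the WT response and -0.29 between the OVA-induced genotypes, where 6 of 17 were lower by more than 0.5 and none was higher, beside 21.2% and 21.3% of all genes. The latter median was -0.48 with the length trend removed. Fabp5, a fatty acid-binding protein, had -2.84, Mfsd2a, a lysolipid transporter, -1.12 and Scd1, the stearoyl-CoA desaturase, -1.10. All 3 were higher with OVA in WT lungs, by 1.80, 1.72 and 1.38. Macrophages and fat cells also express Fabp5 and Scd1. The rate-limiting enzyme of phosphatidylcholine synthesis, Pcyt1a, had 0.21 between the OVA-induced genotypes, and this gene was chosen for its role after its value was seen. Genes of proprotein processing and lamellar body traffic had medians of 0.10 there and 0.21 in the WT response, with 3 of 8 higher by more than 0.5 between the genotypes, beside 21.3% of all genes. With the length trend removed these medians were 0.05 and 0.37, and 1 of 8 was higher by more than 0.5 between the genotypes, beside 19.7%. Adgrf5, a receptor that restrains surfactant secretion and is also made by endothelial cells, had 1.04, Atp11a 0.65 and Lyst 0.61, and without that trend Atp11a was at 0.18, Lyst at 0.15 and Pcyt1a at 0.06. Pga5 had 0 counts in all 4 libraries, and its upper Poisson limit was at most 0.202 CPM.

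**Figure D5:**
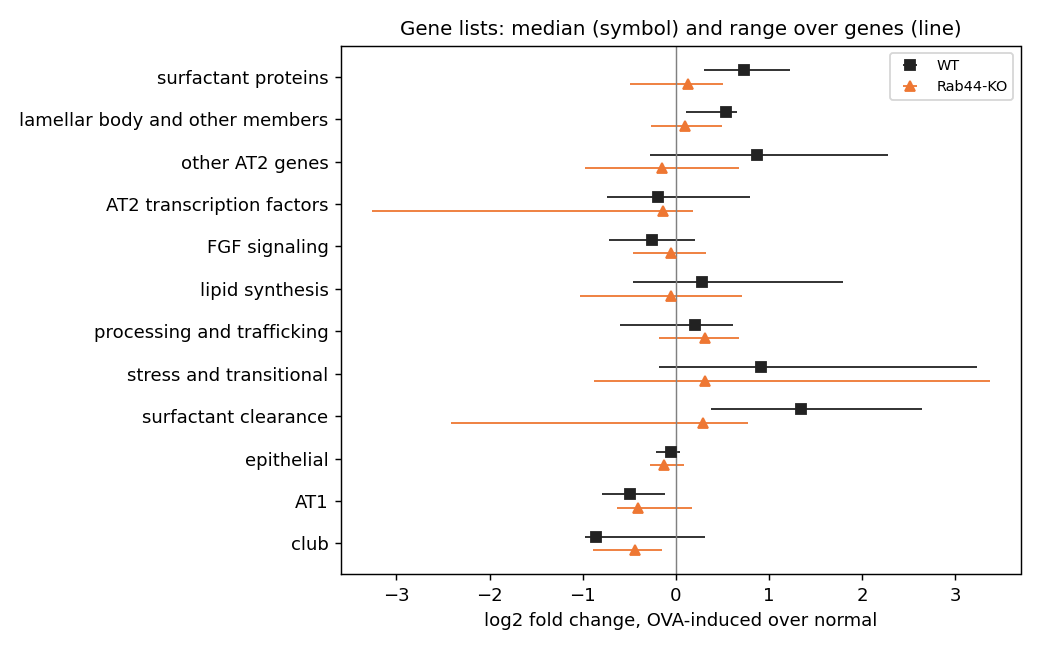
Median log2FC of OVA-induced over normal for 12 gene lists in WT (squares) and Rab44-KO lungs (triangles), with lines over the range of the genes in each list. The surfactant protein genes have medians of 0.73 and 0.13 (0.58 and 0.23 with the length trend removed), and the epithelial list has -0.06 and -0.13. The long line of the transcription factors ends at Etv4, with 2 counts in OVA-induced Rab44-KO lungs.

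Markers of other cells differed between the libraries too. The epithelial genes Epcam, Cdh1, Cldn7, Krt18, Esrp1 and Grhl2 summed to 581 to 614 CPM in the 4 libraries. Cdh1 alone made up 325 to 344.5 CPM of these sums. Between the OVA-induced genotypes 3 of the 6 were higher and 3 lower in Rab44-KO lungs, with Epcam at -0.44, Cldn7 at -0.34 and Grhl2 at 0.39. The epithelial list had medians of -0.09 between the OVA-induced genotypes and -0.06 in the WT response. Relative to that list the members had medians of -0.33 and 0.60 in these comparisons. AT1 genes had medians of -0.07 and -0.50, and club cell genes 0.14 and -0.86. With the length trend removed the OVA-induced genotype medians were 0.08 for the epithelial, 0.18 for the AT1 and 0.70 for the club cell list, and the epithelial WT response was -0.13. All 6 alveolar macrophage markers were lower by more than 0.5 in OVA-induced Rab44-KO than in WT lungs, beside 21.2% of all genes (4 of 6 beside 15.2% with the length trend removed), and their sum was 670 and 5675 CPM in WT against 604 and 1156 CPM in Rab44-KO lungs. Chil3, a chitinase-like protein, made up 5248 and 917 CPM of the OVA-induced sums, and the list had a median WT response of 0.80. All 5 goblet cell markers were lower there by more than 1, beside 7.34% of all genes, with sums of 64.5 and 1916 CPM in WT against 70.8 and 57.5 CPM, and Clca1 made up 1725 CPM of the OVA-induced WT sum. The endothelial list went the other way, with sums of 2888 and 2247 CPM in WT against 2779 and 3016 CPM. Leukocyte genes summed to 234.5 and 580 CPM in WT against 242 and 444 CPM. Between the OVA-induced genotypes the endothelial median was 0.63 and the leukocyte median -0.75, or 0.37 and -0.27 with the length trend removed. The leukocyte list was split there. Ptprc was at 265 CPM in WT and 260.5 CPM in Rab44-KO lungs with OVA, and Itgam at 78.5 and 83.4 CPM. Cd68 had a log2FC of -1.86, Cd3e -1.01 and Cd79a -0.75. Of the 8 housekeeping genes 6 were lower by more than 0.5 in OVA-induced Rab44-KO lungs, beside 21.2% of all genes, and 2 with the length trend removed, beside 15.2%. Gapdh is among the 6 but had only 83 and 49 counts in OVA-induced WT and Rab44-KO lungs, where Actb had 45101 and 29756. The median of the housekeeping genes, with Gapdh included, was -0.64 against -0.42 for the members, and -0.33 against -0.34 with the length trend removed. The part of these cells and of the housekeeping genes in the members' values was not tested.

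Genes with the members' median profile over the 4 libraries were looked for among 3875 genes with at least 1000 counts in every library. The nearest were Spcs3, Gars1, Wdr1, Surf4 and Col6a1, with root mean square differences of 0.016 to 0.030 in centered log2 CPM over 4 libraries. Lpcat1 at 0.036 and Lamp3 at 0.041 were the members nearest to it, and Sftpd at 0.291 and Sftpc at 0.277 the farthest. The 2 members farthest from the median profile were thus the collectin with the largest WT response and the peptide gene with the largest difference between the OVA-induced genotypes.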

How the data were processed

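Total RNA from whole lungs of 4 groups of mice was sequenced with a directional kit as 150-bp paired-end reads. After trimming, the authors used HISAT2 for alignment to GRCm38 and featureCounts for counting per gene, and deposited the raw counts as whole numbers in 1 table. The authors also deposited TPM. Over 15583 genes the ratio of counts to TPM was constant between libraries apart from 1 factor per library, so TPM equals the counts rescaled by 1 length per gene. Tool versions, the strand setting and the treatment of multiply mapped reads are not given in the sources used here.

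TMM factors were computed over the 4 libraries with edgeR 4.0.16 in R 4.3.3, and further steps used Python 3.11.15, numpy 2.4.6, pandas 2.3.3, scipy 1.17.1 and matplotlib 3.10.9. CPM carries an exact Poisson interval. The log2FC has a prior count of 0.125, an exact 95% Clopper-Pearson interval and a minimum of 10 counts in the higher library, and differences of responses have a delta-method interval. With 1 library per group there are no residual degrees of freedom for a comparison of 2 libraries, so no p-value was computed, and an additive fit over the 4 libraries was not run. Changes beyond a log2FC of 0.5 and 1 were counted, beside the share of all genes. PCR duplicates are not known, so intervals cover counting error only.

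The 10 members and the 22 gene lists were chosen with earlier results of these data known. Named genes are the members, the 3 genes of each list with the largest absolute log2FC per comparison and at least 100 counts in the higher library, and the 5 genes nearest to the members' median profile. Nkx2-1, Ptprc and Itgam in some comparisons, Gapdh, Pcyt1a, Etv4, Pga5, Epx and the antisense genes fall outside that rule. So do the full lists of other AT2, epithelial and stress genes, and all of these were named with their values known. Chil1 and Hprt were matched by Ensembl ID as Chi3l1 and Hprt1. Positions are from GENCODE M21, because the start of no member in the deposited table equals that of GENCODE M21 or RefSeq on GRCm38, and promoters are from RefSeq. Alternatives were DESeq2 1.42.0 size factors, total counts, TMM on the 2 libraries compared, scaling without the members, a prior count of 2, TPM in place of CPM (pseudocount 0.1), thinning of each library to the smallest (seed 44), removal of the running median along gene length, and values relative to the epithelial list. The steps were tested on simulated data.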

Additional observations from a re-analysis of the deposited data

Results flagged for a closer look

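Several members had opposite signs in the compared conditions. These differences were not tested, since each condition is 1 library. The responses to OVA of Sftpb, Sftpc, Napsa and Etv5 were above 0 in WT and below 0 in Rab44-KO lungs, and the Rab44-KO minus WT differences on the log2 scale were -0.41 for Sftpb, -0.94 for Sftpc, -0.86 for Napsa and -0.26 for Etv5. With the trend along gene length removed the Rab44-KO response of Sftpb was 0.06, so its responses were then both above 0. Sftpa1, Sftpb, Napsa, Slc34a2 and Lpcat1 were above WT in normal Rab44-KO lungs and below WT in OVA-induced ones, with differences of -0.63 for Sftpa1, -0.41 for Sftpb, -0.86 for Napsa, -0.34 for Slc34a2 and -0.41 for Lpcat1. With the length trend removed the OVA-induced genotype value of Sftpb was 0.17, so its signs were then not opposite here either. The difference is the same in both sets for Sftpb and Napsa because it is built from the same 4 counts. TPM and values relative to the epithelial list shift all genes of a comparison alike (apart from the pseudocount), and signs of small values turn with that shift.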

How the results depend on the processing

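With TPM the members' median log2FC of Rab44-KO over WT with OVA was -0.094 in place of -0.42, and the median difference of responses was -0.15 in place of -0.45. TPM also moved the median of all genes in these 2 comparisons, to 0.29 and 0.26, and 9 of 10 members were below that median in both. Under TPM the all-gene median was -0.16 in the WT and 0.11 in the Rab44-KO response. The count of members beyond 1 with OVA was 0 under total counts, TPM, removal of the length trend and values relative to the epithelial list, and 1 (Sftpc) otherwise. In the WT response it was 2 under thinning and relative to the epithelial list, and 1 otherwise. All 5 medians kept their sign in every alternative run. Of single members, the OVA-induced genotype value of Sftpb was 0.17 and that of Abca3 -0.03 with the length trend removed. In the Rab44-KO response Sftpb was then at 0.06. Under TPM Sftpb, Slc34a2 and Etv5 were above 0 between the OVA-induced genotypes but below the median of all genes, and Etv5 was at -0.07 in the WT response but above that median. The share of all genes beyond 1 in the OVA-induced comparison was 29.8% at a minimum of 1 count, 7.98% at 100 and 5.14% at 1000, the last chosen after seeing the data. No paired analysis was possible because the labels give no replicate numbers and each group has 1 library, and for the same reason no replicate could be left out. Depth was no limit on the members' ratios, and the number of libraries was.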

Other observations

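Genes of stressed and transitional AT2 cells had median responses to OVA of 0.91 in the WT and 0.32 in the Rab44-KO libraries. The list was split, since in WT lungs 6 of the 9 genes were higher with OVA and 3 were lower. Krt8 was at 181.5 CPM in normal and 163 CPM in OVA-induced WT lungs, Cldn4 at 6.51 and 5.73 CPM and Areg at 3.23 and 2.89 CPM. Krt19 differed little, at 178 and 185 CPM. Cdkn1a, a cell cycle inhibitor, was higher with OVA by 1.87 in WT lungs and by 3.37 without Rab44, and between the OVA-induced genotypes it had 1.94, opposite to the surfactant genes. Lcn2, lipocalin 2, had 3.23 and 0.81 in the responses and -1.88 between the OVA-induced genotypes, and Lgals3, galectin 3, had 1.55, 0.32 and -1.62. Both are also made by leukocytes. Krt8, Krt19, Cldn4, Sfn, Areg and Il33 are the remaining genes of that list, which had 1 gene higher and 3 lower by more than 0.5 between the OVA-induced genotypes, beside 21.3% and 21.2% of all genes. Its median there was -0.26, and 0.08 with the trend along gene length removed.

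Genes of surfactant clearance by alveolar macrophages, which take up and break down used surfactant under GM-CSF, were lower in OVA-induced Rab44-KO than in WT lungs by more than 0.5 in all 8 cases, beside 21.2% of all genes, with a median of -0.83. In the WT response their median was 1.34 and in the Rab44-KO response 0.29. Marco, a scavenger receptor, went from 145 to 912 counts with OVA in WT lungs and from 379 to 76 counts in Rab44-KO lungs. Spi1, the factor PU.1, had -1.03 between the OVA-induced genotypes, and -0.68 with that trend removed. Ciliated cell genes had a median of 0.09 there, mesenchymal genes -0.33, and neutrophil genes 0.48, or 0.34, -0.52 and 0.95 with that trend removed, and the last had responses to OVA of 2.62 (WT) and 2.59 (Rab44-KO). The 4 eosinophil genes with enough counts had -2.17, while Epx, the eosinophil peroxidase gene, had 1 count in OVA-induced WT and 0 in the other libraries.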
